A study of Mus musculus with 24 samples.

Results

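The 41 genes described here are members of the tumour necrosis factor (TNF) superfamily and the cell death machinery, chosen by name from the 750 mouse genes that had values: every gene whose symbol starts with Tnf, Traf, Ripk, Casp or Bcl2, plus Fas, Fasl, Fadd, Bax, Bad, Bid, Bbc3 and Birc3. By role they were 10 ligands, 13 receptors, 2 further TNF-named genes that TNF induces, 1 TRAF adaptor, 4 RIP kinases or Fadd, 3 apoptotic caspases, 1 inflammatory caspase, 2 anti-apoptotic and 4 pro-apoptotic members of the BCL2 family, and 1 inhibitor of apoptosis protein. The rule used gene names only, but it was set with earlier results of these data known.

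Expression was measured with NanoString barcode counting, in which each RNA molecule bound by a probe is counted directly, in total RNA that had been extracted with Trizol from mouse mammary tumour-derived transplants (mTDT). All 24 tumours grew in BALB/c hosts, and the labels name no treatment, no engineered allele and no age. The labels sort the tumours by immune infiltrate into 13 inflamed, 4 excluded and 7 desert samples, without saying how the class was assigned. Each tumour code begins with a letter of tumour origin, A for 5 samples, C for 6, F for 2, G for 4, H for 4 and L for 3, followed either by 0 (5 samples) or by F2 (19 samples), a difference the labels do not explain. Some samples share a code number and may be pieces of 1 tumour, and nothing in the labels says which samples are separate animals, so the p-values below measure the spread between samples.

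Ligands of the TNF superfamily bind as trimers to receptors on neighbouring cells. Some receptors, such as those for TNF, FAS ligand and TRAIL, carry a death domain and can recruit FADD and caspase-8, which starts apoptosis, whereas many others recruit TRAF adaptors, which activate NF-kB. Several receptors, among them 4-1BB (Tnfrsf9), GITR (Tnfrsf18) and OX40 (Tnfrsf4), are co-stimulatory receptors of activated and regulatory T cells, and BCL2 family proteins set the threshold of the mitochondrial route to cell death.

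Many genes of the family are known targets of NF-kB, so the promoters of 3 members whose values are described below are shown: Tnfrsf9, Tnfaip3 and Traf1. Each is the stretch of 250 bases before an annotated start, written 5′ to 3′ on the gene's strand, from RefSeq on GRCm38.p6. Capitals mark matches to an NF-kB type motif, GGG followed by any 2 bases and then TTTCC, on either strand.
Tnfrsf9 (chr4:150927749-150927998, plus strand): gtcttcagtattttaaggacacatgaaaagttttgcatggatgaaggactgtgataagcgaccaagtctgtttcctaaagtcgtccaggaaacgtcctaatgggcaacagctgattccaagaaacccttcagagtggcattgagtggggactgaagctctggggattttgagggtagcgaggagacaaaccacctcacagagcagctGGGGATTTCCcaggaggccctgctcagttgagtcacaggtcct
Tnfaip3 (chr10:19015411-19015660, minus strand): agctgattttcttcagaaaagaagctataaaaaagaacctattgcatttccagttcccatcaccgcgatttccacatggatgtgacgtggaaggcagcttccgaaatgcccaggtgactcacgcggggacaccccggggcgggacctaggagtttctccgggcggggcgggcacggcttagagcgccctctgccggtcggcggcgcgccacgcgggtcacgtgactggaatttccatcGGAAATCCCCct
Traf1 (chr2:34961773-34962022, minus strand): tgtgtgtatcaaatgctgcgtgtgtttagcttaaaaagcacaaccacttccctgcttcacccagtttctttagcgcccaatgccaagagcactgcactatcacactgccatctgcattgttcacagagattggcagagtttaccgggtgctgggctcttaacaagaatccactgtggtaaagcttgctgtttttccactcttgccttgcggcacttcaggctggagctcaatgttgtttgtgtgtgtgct
The Tnfrsf9 match lies 43 to 34 bases before the second of its annotated starts, and the Tnfaip3 match, which reads on the opposite strand, lies 12 to 3 bases before the start. The Traf1 stretch holds no match, which says only that these letters are not in this window. RefSeq promoters were found for 34 of the 41 members, and 5 of those 34 (14.7%) held a match in at least 1 promoter: Bcl2l1, Bbc3, Tnfrsf25, Tnfrsf9 and Tnfaip3. The share was 5.85% of 547 matched genes among the 750 and 1.65% of all 27025 genes in the RefSeq table. A match is a description of the sequence and not evidence of binding.

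The 24 libraries differed greatly in depth. Whole barcode counts could be recovered from the deposited log2 values, and they summed to between 107677 and 1110314 in 16 libraries, called deep here, and to between 5262 and 46603 in the other 8, called shallow. The deep libraries were 8 inflamed, 3 excluded and 5 desert samples, of which 3 carried letter A, 4 letter C, 2 letter F, 3 letter G, 2 letter H and 2 letter L. All levels and tests below come from these 16 unless the shallow ones are named, and every value is on the deposited log2 scale, which compares libraries for 1 gene but not 1 gene with another. A detection limit was set in each library 2 SD above the mean of the 75 genes with the lowest counts. It lay at 1.67 to 4.32 in the deep libraries and at 5.14 to 8.40 in the shallow ones.

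Of the 41 members, 32 (78.0%) were above the limit in at least 8 deep libraries, close to the share of all 750 genes (75.7%), and 20 were above it in all 16. Bbc3, Tnfrsf17, Tnfrsf8, Tnfsf18 and Tnfsf4 were above it in none. Among the receptors, Tnfrsf18 was above the limit in 3 libraries, Tnfrsf4 in 4 and Tnfrsf25 in 6, whereas Tnfrsf9 was above it in 14 and Tnfrsf14 in 16. The FAS ligand gene Fasl was above it in 4. A tumour holds many cell types, and in such bulk RNA fewer cells of a type and less RNA per cell cannot be told apart.

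A pair of libraries stood apart from the rest. Inflamed 3 and inflamed 4 share 1 letter A code number, correlated at r = 0.985 over all 750 genes, and still differed by more than counting noise (chi-square per degree of freedom 2.29). Both lay below all other 14 deep libraries for 11 members and above all of them for 3 members, together 34.1% of the 41, against 39.7% of all 750 genes. The members below included Bad, Bax, Casp8, Fas, Ripk1, Ripk2, Tnfaip6, Tnfrsf9, Tnfsf12 and Traf1, and those above were Ripk3, Tnfaip3 and Tnfrsf18. Excluded 2 and excluded 3 likewise share a letter C code number (r = 0.991, chi-square per degree of freedom 8.83). Several of the results that rest on the letter A pair are given with and without it.

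**Figure D1:**
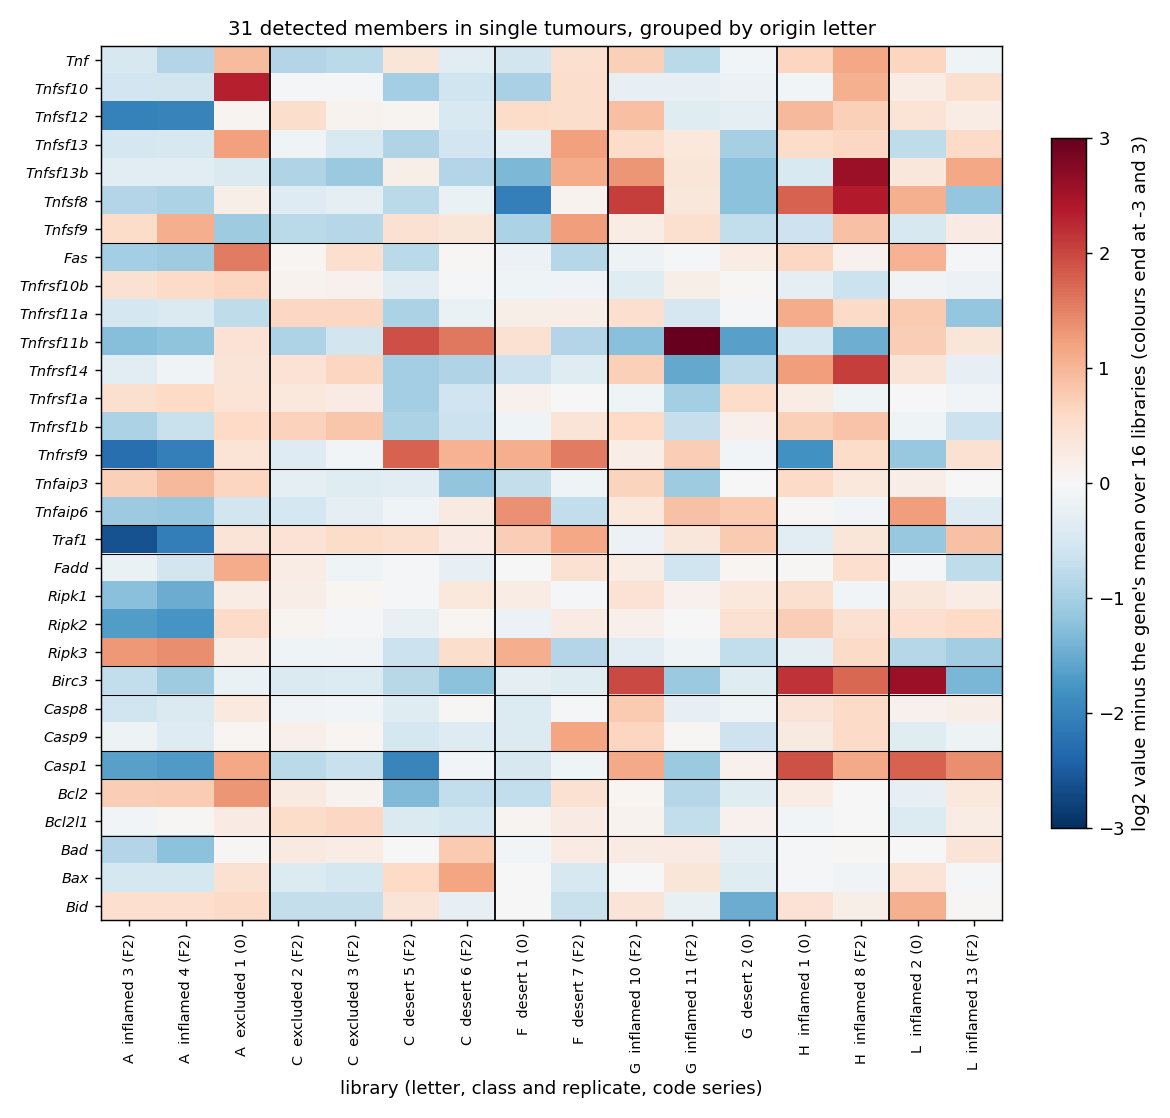
Each column is 1 of the 16 deep libraries, grouped by origin letter, and each row is 1 of 31 members above the detection limit in at least 8 of them, grouped by role. Colour is the log2 value minus the gene's mean over the 16 libraries, with the colours ending at -3 and 3. The letter A pair is low for Traf1, Tnfsf12, Ripk1 and Ripk2, Birc3 is high in inflamed 1, 2, 8 and 10, and Tnfrsf11b is high in inflamed 11.

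Setting inflamed against desert tumours addresses whether genes of immune co-stimulation and cell death differ between the infiltrate classes. In inflamed tumours the 4-1BB receptor Tnfrsf9 and its adaptor Traf1 had lower values than in desert tumours, while GITR, CD30 ligand (Tnfsf8), the LIGHT receptor HVEM (Tnfrsf14), the NF-kB inhibitor A20 (Tnfaip3) and the BH3-only protein Bid had higher ones. None of these differences passed the adjusted test. With limma and Benjamini-Hochberg adjustment over 750 genes, 0 of the 41 members had an adjusted p under 0.05, where 0.267% of all genes did, and 7 members (17.1%) had an unadjusted p under 0.05, against 10.7% of all genes. Of those 7, 5 were higher in inflamed tumours (6.0% of all genes) and 2 were lower (4.67% of all genes). The difference was above 0 for 28 of the 41 members, against 58.5% of all genes, and the median difference was 0.21 over the members and 0.12 over all genes.

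Among the 10 ligands, the difference was above 0 for 9 with a median of 0.32, and 0 passed the test. Tnfsf8 ranged over 2.05, 3.89 and 5.57 (lowest, median and highest) in the 8 inflamed tumours, against 1.16, 1.98, 2.40, 3.0 and 3.30 in the 5 desert tumours. The fitted difference was 1.41 (SE 0.62, adjusted p = 0.441), and 5 of 8 inflamed tumours lay above every desert tumour. Without the letter A pair it was 1.91 (SE 0.58, adjusted p = 0.342). Tnfsf8 was above the detection limit in 5 of 8 inflamed and 2 of 5 desert tumours. The highest desert value, 3.30 in desert 7, was under that library's limit of 4.32. Tnfsf13b, the B cell survival factor BAFF, ranged over 2.81, 3.62 and 5.85 in inflamed tumours, against 1.92, 2.03, 2.38, 3.44 and 4.39 in desert tumours. The groups overlapped and the difference was 1.02 (SE 0.53, adjusted p = 0.539). Tnfsf12, which encodes TWEAK, differed by -0.23 (SE 0.52) and was the 1 ligand with a difference below 0. Tnf itself averaged 3.44 ± 0.78 in inflamed and 3.31 ± 0.44 in desert tumours (SD, n = 8 and 5), a difference of 0.13 that was within the spread.

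Of the 13 receptors, 10 had a difference above 0, with a median of 0.18. Tnfrsf9 ranged over 2.14, 3.93 and 5.15 in inflamed tumours, against 4.31, 5.44, 5.50, 5.95 and 6.18 in desert tumours. The difference was -1.74 (SE 0.56, adjusted p = 0.315), a 3.35-fold lower level, and 4 of 8 inflamed tumours were below every desert tumour. The letter A pair gave the lowest values, 2.14 and 2.35, both under their detection limits, and without that pair the difference was -1.25 (SE 0.49, adjusted p = 0.409). Within letter G, which holds both classes, Tnfrsf9 was 4.60 and 5.15 in inflamed 10 and 11 and 4.31 in desert 2, the opposite order. With letter as a random block the difference was -1.58 (SE 0.63, adjusted p = 0.472). Of the 13 T cell genes measured, 4 were above the limit in at least 8 deep libraries.

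Tnfrsf18 ranged over 1.13, 2.61 and 5.22 in inflamed tumours, against -2.54, 0.84, 0.89, 1.49 and 1.72 in desert tumours. The difference was 2.38 (SE 0.84, adjusted p = 0.347), but only 2 of 8 inflamed tumours, the letter A pair at 5.22 and 5.07, and 0 of 5 desert tumours were above the detection limit. The pair held 178 and 92 counts of Tnfrsf18. Without it the difference was 1.61 (SE 0.75, adjusted p = 0.436). Tnfrsf14 ranged over 3.97, 5.63 and 7.56 in inflamed tumours, against 4.48, 4.59, 4.72, 4.85 and 5.13 in desert tumours. Of the 8 inflamed tumours 7 were above all desert tumours and 1, inflamed 11, was below them all, with a difference of 1.02 (SE 0.46, adjusted p = 0.441). The main TNF receptors Tnfrsf1a and Tnfrsf1b differed by 0.18 (SE 0.33) and 0.11 (SE 0.38), and the TRAIL receptor Tnfrsf10b by 0.08 (SE 0.27).

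Downstream of the receptors, Traf1 ranged over 2.70, 5.05 and 6.19 in inflamed tumours, against 5.55, 5.78, 6.04, 6.10 and 6.47 in desert tumours. The difference was -1.27 (SE 0.51, adjusted p = 0.401), and -0.69 (SE 0.33, adjusted p = 0.436) without the letter A pair, whose values of 2.70 and 3.24 were under their limits. Tnfaip3, which encodes the NF-kB inhibitor A20, ranged over 4.89, 6.38 and 6.92 in inflamed tumours, against 4.77, 5.22, 5.60, 5.81 and 5.93 in desert tumours. Of the 8 inflamed tumours 7 lay above all desert tumours, and the difference was 0.77 (SE 0.36, adjusted p = 0.441), or 0.59 (SE 0.35) without the pair. Tnfaip6, a hyaluronan-binding protein induced by TNF, differed by -0.33 (SE 0.44). The kinases Ripk1 and Ripk2, which relay receptor and NOD signals, and the adaptor Fadd had differences of -0.30 (SE 0.36), -0.20 (SE 0.44) and -0.21 (SE 0.30), and Ripk3, the kinase of necroptosis, of 0.21 (SE 0.47).

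In the execution machinery the values of every caspase and BCL2 family gene measured overlapped between inflamed and desert tumours. Of all genes, 0.267% did not overlap there. Casp1, the inflammasome caspase, averaged 8.01 ± 1.55 in inflamed and 7.14 ± 0.85 in desert tumours, a difference of 0.87 (SE 0.69, adjusted p = 0.653). The initiator caspase Casp8 averaged 7.88 ± 0.49 in inflamed and 7.61 ± 0.20 in desert tumours. Bid, which caspase-8 cleaves to engage mitochondria, ranged over 5.83, 6.47 and 7.11 in inflamed tumours, against 4.56, 5.39, 5.80, 6.05 and 6.44 in desert tumours, with a difference of 0.77 (SE 0.36, adjusted p = 0.441). The survival gene Bcl2 differed by 0.66 (SE 0.37, adjusted p = 0.564), Bcl2l1, which encodes BCL-XL, by -0.01 (SE 0.26), and the pro-apoptotic Bax and Bad by -0.25 (SE 0.33) and -0.28 (SE 0.32).

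**Figure D2:**
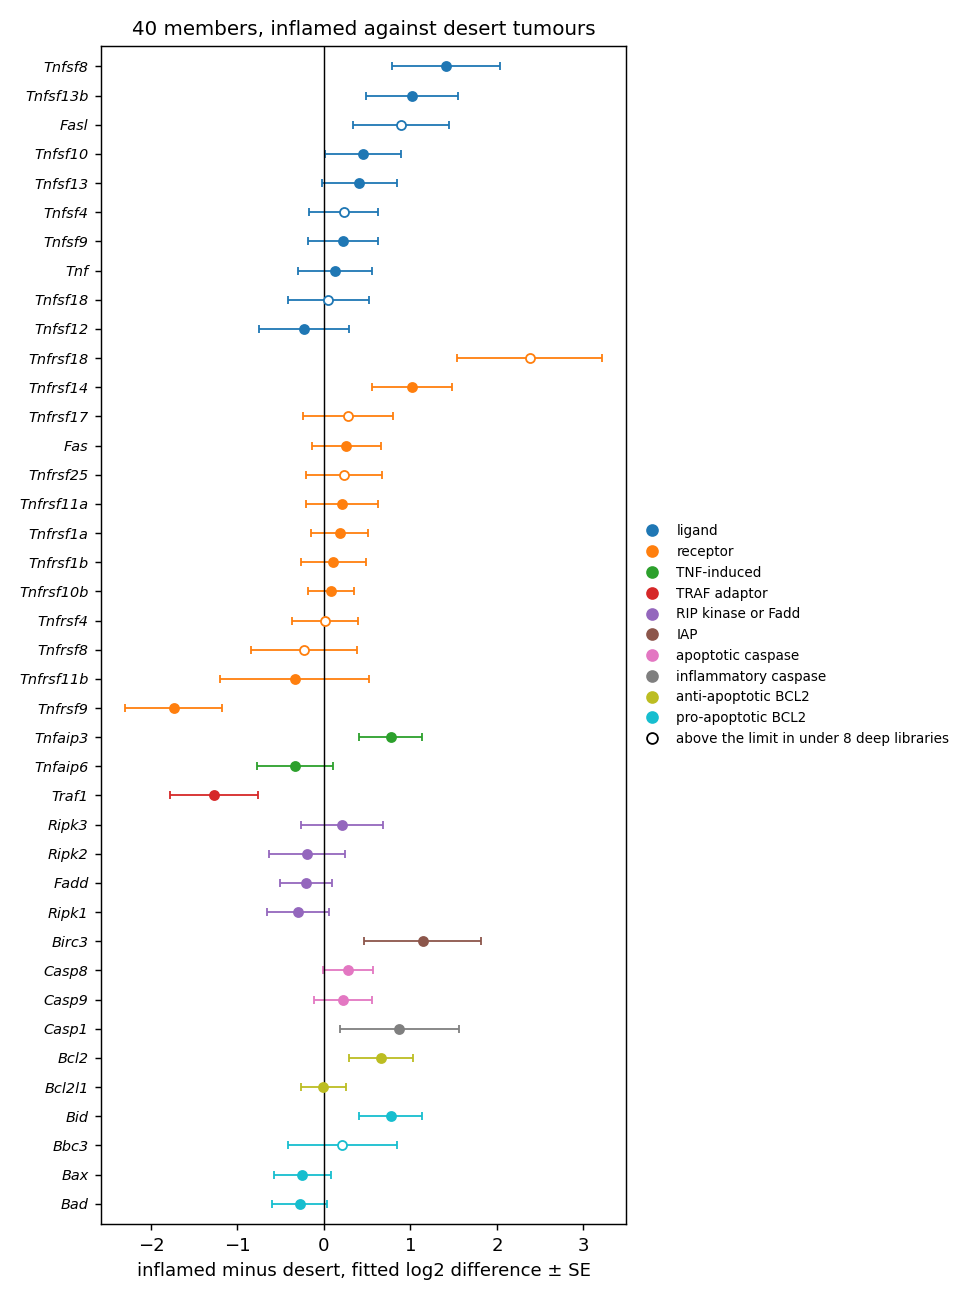
The horizontal axis is the fitted log2 difference of inflamed minus desert tumours for 40 of the 41 members, with bars of 1 SE, coloured by role. Open points mark members above the detection limit in fewer than 8 of the 16 deep libraries. Points run from -1.74 for Tnfrsf9 to 2.38 for Tnfrsf18, and no member passed the adjusted test.

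**Figure D3:**
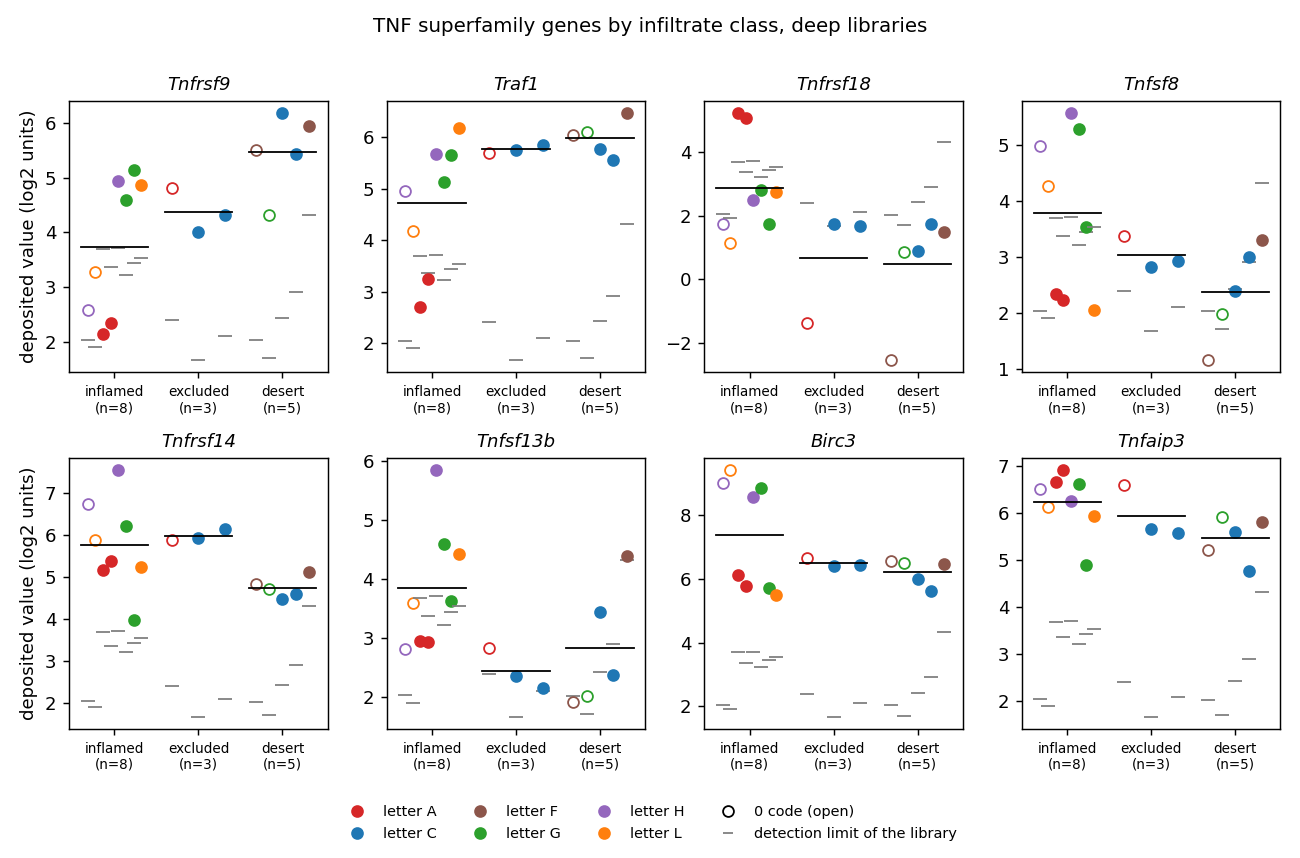
Deposited log2 values of 8 members in the deep inflamed (n = 8), excluded (n = 3) and desert (n = 5) libraries, coloured by origin letter, with open points for 0 codes, black lines at group means and grey ticks at each library's detection limit. Tnfrsf9 and Traf1 are lowest in the letter A pair, and 7 of 8 inflamed tumours lie above all desert tumours for Tnfrsf14 and Tnfaip3.

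Levels of other cells' markers are given beside these results. The 13 T cell genes measured all had differences above 0 in inflamed against desert tumours (median 1.08), with 0 past the adjusted test. Their summed level spanned 5.95 to 8.02 in inflamed and 4.95 to 6.93 in desert tumours. Of the 13, 9 were above the limit in inflamed 8 (8.02). In inflamed 11 (5.95), desert 5 (4.95) and desert 7 (6.93) 0 were, so these sums are in part background. Of 7 neutrophil genes, 2 had differences above 0 (median -1.49), and only S100a8 passed the test, as lower. Their summed levels were 6.54 to 10.84 in inflamed and 10.55 to 12.26 in desert tumours. The part of these cells in the differences of Tnfrsf9, Traf1 and Tnfsf8 was not tested. Other genes of the same pathways gave no passing member: of 6 further TNF superfamily genes 6 had a difference above 0 (median 0.37), of 11 NF-kB pathway genes 3 did (median -0.22), and of 11 other cell death genes 8 did (median 0.24).

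Set against excluded tumours, inflamed tumours had higher values of the ligands Tnfsf9 (4-1BB ligand), Tnfsf18 (GITR ligand) and Tnfsf13b, and lower values of Bcl2l1. With limma, 0 members and 0.0% of all genes had an adjusted p under 0.05, while 4 members (9.76%) and 8.53% of all genes had an unadjusted p under 0.05. Tnfsf9 ranged over 2.31, 3.30 and 4.04 in inflamed tumours, against 1.87, 2.08 and 2.13 in excluded tumours. The groups did not overlap, and the difference was 1.21 (SE 0.47), which did not pass the adjusted threshold. Tnfsf9 was above the detection limit in 4 of 8 inflamed and 1 of 3 excluded libraries. Its recovered counts were 11 to 54 in inflamed and 19 to 29 in excluded libraries. Those of Tnfsf18 were 6 to 22 and 9 to 12, and those of Tnfsf13b 15 to 78 and 21 to 37. The excluded libraries held 718971 to 1090063 counts in total and the inflamed ones 163054 to 1093001. The part of depth in these differences was not tested. Bcl2l1 ranged over 6.97, 7.69 and 7.93 in inflamed tumours, against 7.97, 8.27 and 8.34 in excluded tumours, a difference of -0.60 (SE 0.31, adjusted p = 0.631) with no overlap. Such separation was seen in 3 of 41 members (7.32%) and in 3.60% of all genes, and the third member, Tnfsf18, with a difference of 1.37 (SE 0.56), was under the limit in every library. Tnfrsf18 differed by 2.19 (SE 1.00, adjusted p = 0.581), by 1.42 without the letter A pair and by 1.16 without excluded 1.

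Tnfsf13b differed by 1.41 (SE 0.64, adjusted p = 0.581) between inflamed tumours, at 3.85 ± 1.05, and excluded tumours, at 2.45 ± 0.35 (SD, n = 8 and 3). Inflamed 1, at 2.81, lay just below the highest excluded tumour at 2.83, and the other 7 inflamed tumours lay above all 3. Traf1 differed by -1.05 (SE 0.61, adjusted p = 0.656) and, without the letter A pair, by -0.47 (SE 0.39). Of the 3 excluded libraries 2 share 1 code number.

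Excluded tumours, set against desert tumours, had higher values of the survival gene Bcl2 and of the receptors Tnfrsf14 and Tnfrsf1b, and none of these differences passed the adjusted test. This comparison shares its desert libraries with the first and its excluded libraries with the second. With limma, 0 members and 0.0% of all genes had an adjusted p under 0.05, and 3 members (7.32%) and 6.13% of all genes had an unadjusted p under 0.05. Bcl2 was 5.83, 4.77 and 4.60 in excluded tumours, against 3.76, 4.14, 3.17, 3.77 and 4.95 in desert tumours, with overlapping ranges and a difference of 1.11 (SE 0.47, adjusted p = 0.702), or 0.73 without excluded 1. Tnfrsf14 was 5.88, 5.93 and 6.15 in excluded tumours, against 4.48 to 5.13 in desert tumours, a difference of 1.23 (SE 0.59, adjusted p = 0.784) with no overlap. Tnfrsf1b was 6.78, 6.87 and 7.02 in excluded tumours and 5.25 to 6.58 in desert tumours, a difference of 0.93 (SE 0.48, adjusted p = 0.809). Separate ranges occurred in 4 of 41 members (9.76%) and in 7.87% of all genes.

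The ligand TRAIL (Tnfsf10) was 5.75, 3.36 and 3.40 in excluded tumours, against 2.46, 3.24, 2.40, 2.82 and 3.95 in desert tumours, a difference of 1.20 (SE 0.56, adjusted p = 0.784). Excluded 1 alone lay above the desert range, and without it the difference was 0.40. The highest desert value, 3.95 in desert 7, was under that library's limit of 4.32, and the other desert values lay below all excluded ones. Tnfsf10 was above the limit in 3 of 3 excluded and 2 of 5 desert libraries. Fas was 5.48, 3.98 and 4.43 in excluded tumours and 3.07 to 4.15 in desert tumours, a difference of 1.02 (SE 0.51, adjusted p = 0.805), or 0.59 without excluded 1. Tnfsf18, under the limit in every library, differed by -1.32 (SE 0.60, adjusted p = 0.738), or by -0.81 without desert 7.

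Letter C holds 2 excluded and 2 desert libraries, so the order can be read within 1 origin. There Tnfrsf14 was 5.93 and 6.15 in the excluded pair, against 4.48 and 4.59 in desert 5 and 6. Bcl2l1 was 8.27 and 8.34 in the excluded pair, against 7.29 and 7.18 in the desert pair, and Bcl2 4.77 and 4.60 against 3.17 and 3.77. The 2 excluded libraries are of 1 code number and the 2 desert libraries of 2, so each side may stand for very few tumours, and no test was made within the letter.

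By origin letter, an F test over all 6 letters called 0 of the 41 members and 0.400% of all genes. Casp1 (adjusted p = 0.245) and Tnfsf12 (adjusted p = 0.261) were the 2 members with an unadjusted p under 0.05, against 18.4% of all genes, followed by Tnfsf8 (adjusted p = 0.313), Tnfrsf14 and Traf1 (adjusted p = 0.341 each). Letter A was then set against the mean of the other letters. There the ligand Tnfsf12, the adaptor Traf1 and the kinases Ripk1 and Ripk2 fell, and no member rose past the threshold. These calls made up 9.76% of the members, against 22.4% of all genes, with 13.7% of all genes called lower and 8.67% called higher, so the share among the members was below the background. At an unadjusted p under 0.05 there were 11 members (26.8%), against 34.9% of all genes.

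Tnfsf12, the TWEAK ligand, was 5.84, 3.73 and 3.75 in letter A and 5.29 to 6.73 in the other 13 libraries. It fell 3.20-fold (log2 difference -1.68, SE 0.45, adjusted p = 0.0210). Traf1 was 5.69, 2.70 and 3.24 in letter A and 4.18 to 6.47 elsewhere, a log2 difference of -1.74 (SE 0.55, adjusted p = 0.0381). Ripk1 was 5.97, 4.49 and 4.27 in letter A and 5.68 to 6.24 elsewhere, a difference of -1.04 (SE 0.35, adjusted p = 0.0487). Ripk2 was 5.13, 2.88 and 2.79 in letter A and 4.35 to 5.31 elsewhere, a difference of -1.24 (SE 0.42, adjusted p = 0.0498). In all 4 genes the 0-code tumour of letter A lay within the range of the other letters and the pair of inflamed 3 and 4 lay below it. In the pair, Traf1 and Ripk2 were under the detection limit and Tnfsf12 just above it, so the size of these differences depends on the background.

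Without that pair only the 0-code tumour was left in letter A, and the differences were -0.27 for Tnfsf12 (adjusted p = 0.887), 0.07 for Traf1 (adjusted p = 0.987), 0.01 for Ripk1 (adjusted p = 0.994) and 0.29 for Ripk2 (adjusted p = 0.858). Counting each code number once gave -1.31 for Tnfsf12 (adjusted p = 0.227) and -1.28 for Traf1 (adjusted p = 0.330), and no member was called. All 4 calls rested on that code number. Tnfsf12 was past the threshold in 21 of 26 alternatives, Traf1 in 14, Ripk1 in 6 and Ripk2 in 5. The calls also depended on the scaling. The median difference of all 750 genes was -0.22 as deposited and 0.23 when each library was centred on its own median. The calls then changed to 4 members higher (Bcl2, Ripk3, Tnfaip3 and Tnfrsf10b) and 1 lower (Tnfsf12), and over all genes the split of 65 higher and 103 lower became 83 higher and 56 lower. Tnfsf12 was called lower as deposited, with median centring (-1.23) and with quantile normalisation (-1.37).

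Members that were higher in letter A included Ripk3 and the survival gene Bcl2. Ripk3 was 5.76, 6.82 and 6.92 in letter A and 4.48 to 6.63 elsewhere, a difference of 1.20 (SE 0.43, adjusted p = 0.0611). Bcl2 was 5.83, 5.24 and 5.27 in letter A and 3.17 to 4.95 elsewhere, so that all 3 letter A tumours lay above all 13 others, a difference of 1.11 (SE 0.40, adjusted p = 0.0624). Such separation was found in 2 of 41 members (4.88%), the other being the TRAIL receptor Tnfrsf10b, and in 6.53% of all genes.

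**Figure D4:**
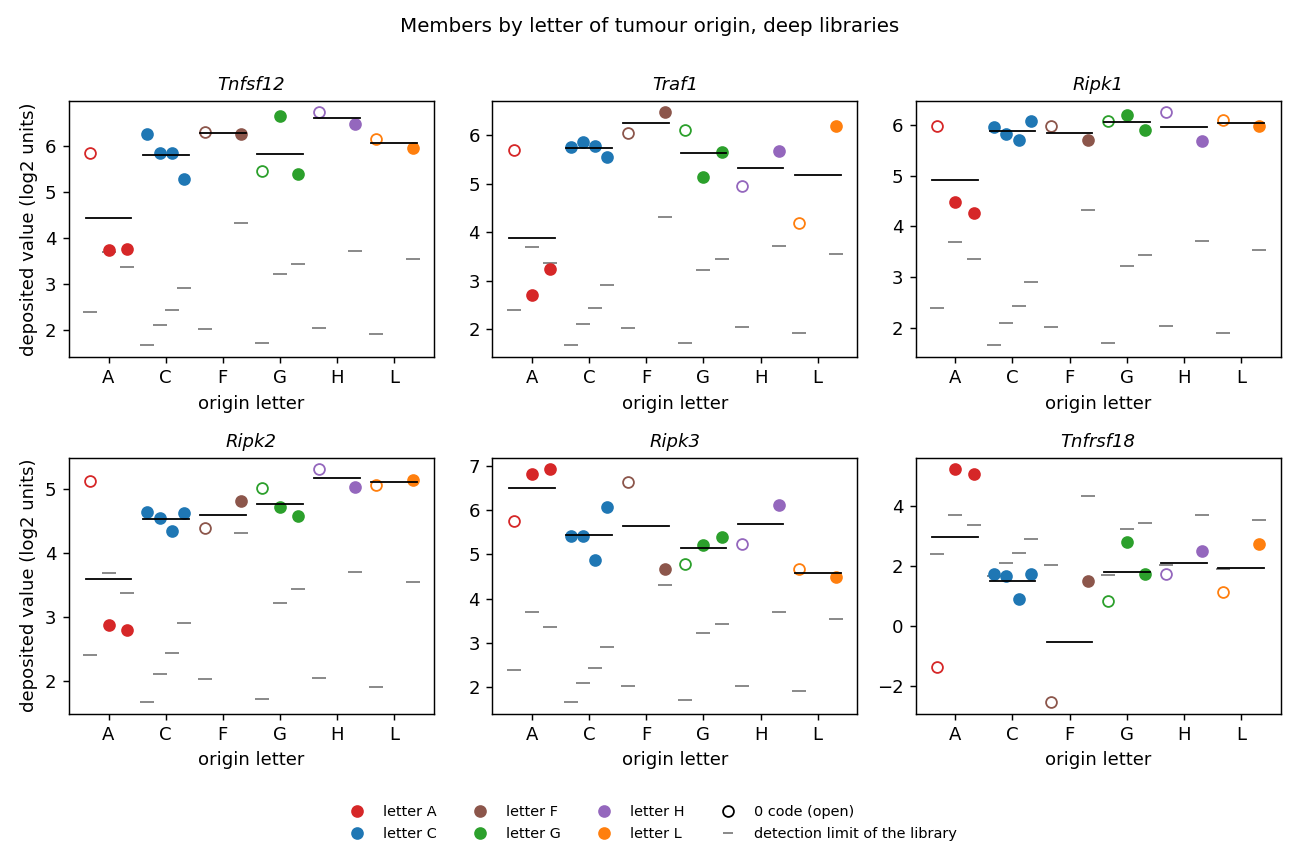
Deposited log2 values of 6 members in the 16 deep libraries by origin letter, with open points for 0 codes, black lines at letter means and grey ticks at detection limits. In letter A the 2 filled points, inflamed 3 and 4, are low for Tnfsf12, Traf1, Ripk1 and Ripk2 and high for Ripk3 and Tnfrsf18, and the open point lies elsewhere.

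Cell markers moved with letter A as well. Of 10 macrophage genes 8 were called lower (median -2.11), with a summed level of 9.89 to 11.85 in letter A and 11.47 to 14.05 in the other letters. The lowest sums, 9.89 and 9.94, were in the pair. Of 4 epithelial genes 3 were called higher (Cdh1, Epcam and Lamb3), with sums of 10.33 to 11.03 in letter A, the 0-code tumour included, and 4.19 to 6.37 elsewhere, and 1 of the 4 was above the limit in at least 8 deep libraries. The part of these cells in the calls of Tnfsf12, Traf1, Ripk1 and Ripk2 was not tested.

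The shallow libraries give weak further readings for letter A. Inflamed 6, of another letter A code and with 21786 counts, held 12 counts of Tnfrsf18 (95% Poisson interval 6.2 to 21.0) and 16 of Ripk3 (9.1 to 26.0), both above its detection limit. It held 3 counts each of Traf1, Ripk1 and Tnfrsf9 (0.6 to 8.8), below the limit. Its Tnfsf12, at 11 counts and a value of 5.22, was above the limit. Inflamed 5, of the remaining letter A code, held 13 counts of Tnfsf12, above its limit at a value of 6.65. It held 3 counts of Tnfrsf18 (0.6 to 8.8), 1 of Ripk3, 12 of Tnfrsf9 (6.2 to 21.0), 8 of Ripk1 and 6 of Traf1, all below the limit. These intervals cover counting error only.

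Letter C was set against the mean of the other letters in the same way. No member was called, against 0.133% of all genes, and only Casp1 had an unadjusted p under 0.05, against 4.93% of all genes. Casp1 averaged 6.76 ± 0.80 in letter C and 7.95 ± 1.30 elsewhere (SD, n = 4 and 12), a difference of -1.31 (SE 0.55, adjusted p = 0.805), and its lowest value was 5.67 in desert 5. The next smallest p-values were those of Tnfaip3, with a difference of -0.69 (SE 0.33), Birc3, with -1.08 (SE 0.62), Tnfsf13b, with -0.99 (SE 0.59), and Tnfsf13, which encodes APRIL, with -0.71 (SE 0.44), each with an adjusted p of 0.805.

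Several members varied widely between single tumours. Birc3, which encodes the inhibitor of apoptosis cIAP2, was 9.01, 9.41, 8.56 and 8.83 in inflamed 1, 2, 8 and 10 and 5.48 to 6.64 in the other 12 libraries, 4 of them inflamed. These 4 tumours carry letters H, L, H and G, and the other deep libraries of letters L and G were not high. Tnfsf8 was 4.98, 4.26, 5.57 and 5.28 in those 4 tumours and no higher than 3.53 elsewhere. The summed macrophage level in those tumours was 14.01, 13.27, 14.05 and 13.78, against 9.89 to 13.33 in the other 12, and its part in these values was not tested. Excluded 2 and 3 had sums of 13.33 and 13.27, with Birc3 at 6.40 and 6.43 and Tnfsf8 at 2.82 and 2.92. The shallow inflamed 12, of letter G, held 86 counts of Birc3 (68.8 to 106.2), a value of 8.36.

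Tnfrsf11b, the decoy receptor osteoprotegerin that binds RANK ligand, was 10.36 in inflamed 11, 8.05 in desert 5 and 7.71 in desert 6, and 4.50 to 6.86 in the other 13. Bax, which permeabilises mitochondria, was highest in desert 6 at 8.32.

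Tumours with 0 codes were set against those with F2 codes. The receptor Tnfrsf17, the plasma cell receptor BCMA, was called lower, and it was the only call among the members (2.44%, against 4.13% of all genes, or 3.47% for genes called lower). At an unadjusted p under 0.05 there were 8 members (19.5%), against 18.0% of all genes. Tnfrsf17 was -0.19 ± 0.30 in 5 tumours with 0 codes and 1.41 ± 0.75 in 11 tumours with F2 codes, a log2 difference of -1.60 (SE 0.37, adjusted p = 0.0313). It was under the detection limit in all 16 libraries. Its recovered counts were 4 to 8 in the 0 codes and 2 to 16 in the F2 codes, so both groups sat near background. The call held in 16 of 25 alternatives (adjusted p from 0.00354 to 0.617) and was lost in 9. It was lost without inflamed 3 and 4 (-1.48, adjusted p = 0.0562), without inflamed 13 (-1.48) and without any 1 of the 5 libraries with 0 codes (-1.65 to -1.47). It was also lost with quantile normalisation, where the difference shrank to -0.55 (adjusted p = 0.617), and with a pseudocount of 10, where it shrank to -0.24 (adjusted p = 0.32).

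Of the members that did not pass, Tnfrsf18 had the difference farthest from 0, at -0.05 ± 1.82 in 0 codes and 2.50 ± 1.42 in F2 codes, a difference of -2.55 (SE 0.76, adjusted p = 0.0666). The F2 codes include the letter A pair at 5.22 and 5.07, where all other deep libraries were at most 2.79. The pro-apoptotic Bbc3 (PUMA) differed by -1.60 (SE 0.46, adjusted p = 0.0576), Tnfsf9 by -1.13 (SE 0.34, adjusted p = 0.0666) and Tnfrsf8, which encodes CD30, by -1.37 (SE 0.47, adjusted p = 0.113). The letters A, F, G, H and L each hold deep libraries of both codes, and with letter as a random block all 4 passed the threshold: Tnfrsf18 at -2.78 (adjusted p = 0.0144), Bbc3 at -1.80 (adjusted p = 0.0103), Tnfsf9 at -1.30 (adjusted p = 0.012) and Tnfrsf8 at -1.52 (adjusted p = 0.0272). The same 4 passed with median centring, and Tnfrsf17 passed under both (-1.76 with the block, adjusted p = 0.00354). Recovered counts of Bbc3 were 3 to 13 in the 0 codes and 4 to 13 in the F2 codes. The 5 libraries with 0 codes held 982205 to 1110314 counts and the 11 deep libraries with F2 codes 107677 to 976271, so depth and code cannot be told apart here. Among members with a difference above 0, Fas, the death receptor, was 4.58 ± 0.67 in 0 codes and 3.64 ± 0.54 in F2 codes, a difference of 0.95 (SE 0.34, adjusted p = 0.131), and Casp1 was 8.54 ± 1.04 in 0 codes and 7.24 ± 1.20 in F2 codes, a difference of 1.30 (SE 0.59, adjusted p = 0.248). For Fas the letter A pair, at 2.92 and 2.87, lay below all other deep libraries.

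**Figure D5:**
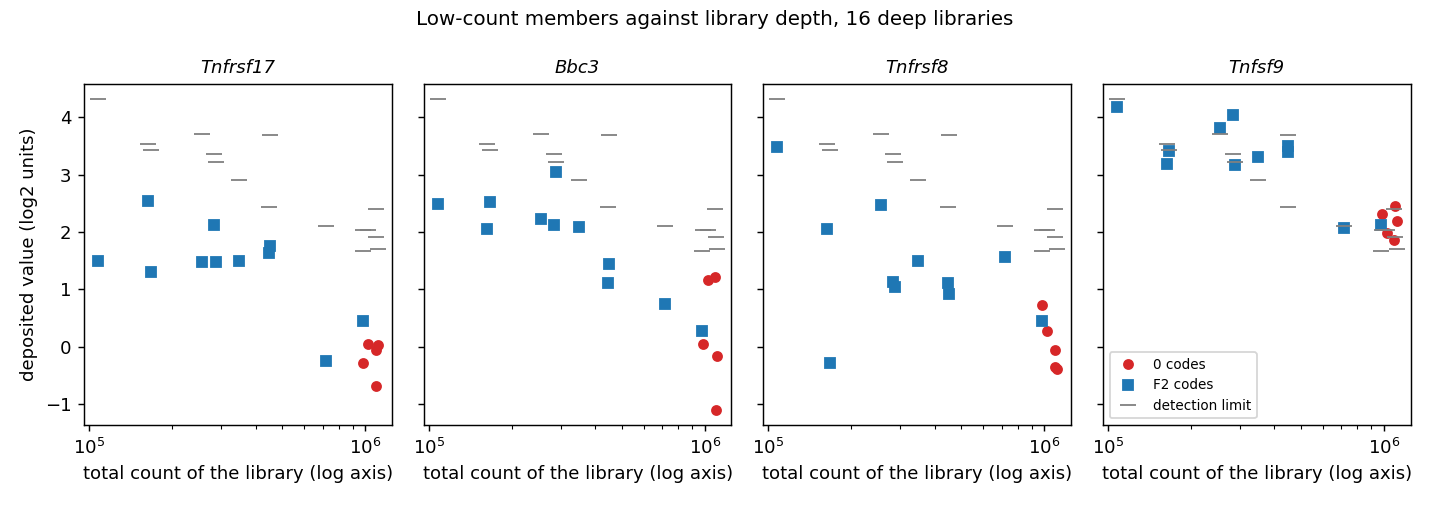
Deposited log2 values of 4 members with low counts against the total count of each of the 16 deep libraries on a log axis, with red circles for 0 codes, blue squares for F2 codes and grey ticks at each library's detection limit. The values lie lower toward the deep end, and the 0 codes are all there, from 982205 to 1110314 counts.

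Ligands and their receptors were also compared across the 16 deep libraries. Of 22 pairs listed, 12 had both genes measured and 4 had both above the limit in at least 8 libraries. Pearson's r was -0.07 for Tnf with Tnfrsf1a, 0.40 for Tnf with Tnfrsf1b, 0.09 for Tnfsf9 with Tnfrsf9 and 0.14 for Tnfsf10 with Tnfrsf10b. The permutation p-values from 100000 resamples were 0.782, 0.123, 0.751 and 0.613, with adjusted values over the 4 pairs of 0.782, 0.494, 0.782 and 0.782. Spearman's rho was -0.29, 0.32, 0.11 and 0.02 (permutation p = 0.276, 0.224, 0.674 and 0.935, adjusted 0.553, 0.553, 0.899 and 0.935). Leaving out the 2 libraries farthest from the median of the ligand gave r of -0.16, 0.21, 0.24 and -0.13, and within the 11 libraries with F2 codes r was -0.26, 0.31, 0.05 and -0.47. Without inflamed 3 and 4, r was 0.11, 0.28, 0.55 and 0.38 over 14 libraries, and Tnfsf9 with Tnfrsf9 had a permutation p of 0.0427 (adjusted 0.171) and an r of 0.77 over 9 libraries with F2 codes. With median centring r was -0.14, -0.03, 0.14 and 0.16. No pair passed the adjusted threshold in any of these settings, and the 16 libraries include 2 pairs that share a code number.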

How the data were processed

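NanoString counts of 24 mammary tumour-derived transplants were analysed from 1 table of 784 rows, of which 34 had no value (14 controls and 20 genes) and 750 were genes. The values the authors deposited are on a log2 scale, as the values themselves show, and the normalisation behind them is not given in the sources used here. In each column, 2 to the power of the value was a whole multiple of 1 step (tolerance 0.001, 100.0% of values), so the deposited log2 values are barcode counts times a factor for each library. Counts were recovered from those steps and served for depth, the detection limit and a weighted alternative.

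Libraries with at least 100000 counts entered the fits, because 8 libraries were far shallower. Python 3.11.15 and limma 3.58.1 in R 4.3.3 were used, with lmFit and eBayes on the log2 values, no pseudocount, and Benjamini-Hochberg adjustment over 750 genes at a threshold of 0.05. One model held the 3 infiltrate classes, one the 6 origin letters and one the 0 and F2 codes. The fit was tested on simulated data. In inflamed against desert tumours, changes of 2 on the log2 scale placed in 200 of 750 genes were recovered in 146, and changes of 4 in 199, with 7 other genes called each time. In both comparisons with excluded tumours, changes of 2 were recovered in 124, and changes of 4 in 197 (against inflamed) and 189 (against desert), with 3 to 15 other genes called. The simulated libraries were independent, whereas some real ones share a code number. With 200 genes changed the adjusted threshold is also easier to pass, so these counts do not give the power of the class comparisons. Alternatives covered libraries, filters, scaling, pseudocount, weights and single libraries.

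The members, the other gene lists and the comparisons were chosen with earlier results of these data known. Members are named with values where they passed a test, had the 5 smallest p-values of a comparison or the 10 largest SDs, were Tnfrsf9, Tnfrsf18, Traf1 or Tnfsf13b, or led their role in inflamed against desert tumours by the 2 smallest p-values. Other members were named for their role or for 1 outlying library after their values were seen. The values of 1 member, counted in all totals, are not reported here. Promoters came from RefSeq tables on GRCm38.p6.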

Additional observations from a re-analysis of the deposited data

Results flagged for a closer look

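For the 25 named members above the detection limit in at least 8 deep libraries, the inflamed and the desert libraries, 50 sets of values in all, were searched for 1 library far from the rest of its class. Chance marks about 1 in 20 sets chosen without regard to their values. Some members were named for a large SD in these values and the sets share libraries, so that rate does not apply here. Of the 50 sets, 2 were marked. Casp1 in desert 5 was 5.67, against 7.17 to 7.78 in the other desert libraries. Tnfrsf11b in inflamed 11 was 10.36, against 4.65 to 6.86 in the other inflamed libraries. Desert 5 held 447375 counts and inflamed 11 held 166892, where the deep libraries held 107677 to 1110314. No cause was tested.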

How the results depend on the processing

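No paired analysis was possible because the sample numbers in the labels count samples within 1 tumour code and pair none across the groups compared. Tumours of 1 origin letter were instead matched through the letter as a random block. The 30 differences recomputed were those of members called or with the 5 smallest p-values in each comparison but the F test. A member could enter more than once. Of their 892 values under alternatives, 799 kept their sign and their side of the threshold, 24 passed it only in the alternative, 64 only in the fit as reported, and 5 changed sign. All 64 belonged to the differences called as reported, those of Tnfsf12, Traf1, Ripk1 and Ripk2 in letter A and Tnfrsf17 in 0 against F2 codes. The others were not called as reported, so most of the 799 only stayed uncalled. The sign changes were Bcl2 in excluded against desert tumours (-0.04 with all 24 libraries), Tnfsf13 in letter C (0.12 with all 24), and Ripk1 (0.01), Ripk2 (0.29) and Traf1 (0.07) in letter A without inflamed 3 and 4. That last alternative was chosen after the data were seen.

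No alternative called a member in any of the 3 class comparisons, and leaving out single libraries gave 0 to 0 members in each. Over all genes, leaving out single libraries gave 0 to 3 for inflamed against desert tumours, 0 to 1 against excluded tumours and 0 to 0 for excluded against desert tumours. For inflamed against desert tumours the 2 genes called became 0 with all 24 libraries, codes averaged, F2 codes only, the 2 classes alone, without the letter A pair, or without letter A, C, F or H, and 1 with median centring or without letter G. The F test of letters called 5 members with F2 codes only. Over all genes its 3 calls became 147 with F2 codes only, 10 with quantile normalisation, 5 with median centring, 0 with all 24 libraries, and 1 with detected genes only, codes averaged or the pair left out. Single libraries left out gave 0 to 6 members and 1 to 149 genes, the highest without excluded 1.

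For letter A the 4 members called became 13 with F2 codes only, 9 with a pseudocount of 10, 8 with quantile normalisation, 7 with detected genes only, and 0 with all 24 libraries, codes averaged or the pair left out. Over all genes 168 became 307 with F2 codes only, 13 with all 24 libraries, 9 without the pair and 6 with codes averaged. Single libraries left out gave 0 to 10 members and 14 to 298 genes, with 0 members without inflamed 3 or inflamed 4 and 10 without excluded 1. For letter C, F2 codes only gave 1 member (Tnfsf13b, -1.77) and 39 genes, and the 1 gene called became 0 with all 24 libraries, detected genes only, codes averaged, median centring, precision weights or the pair left out. Single libraries left out gave 0 to 0 members and 0 to 2 genes. For 0 against F2 codes, the 1 member called became 5 with letter as a random block or median centring, 3 with codes averaged, 2 with all 24 libraries, and 0 with detected genes only, quantile normalisation, a pseudocount of 10 or the pair left out. Over all genes 31 became 77 with the block, 54 with median centring (3 higher and 51 lower, against 5 higher and 26 lower as deposited), 10 without the pair, and 0 with detected genes only, quantile normalisation or a pseudocount of 10. Single libraries left out gave 0 to 3 members and 0 to 42 genes. The cause of these changes was not tested, except that fewer genes or samples entered where the setting says so. Depth limits the members near background, above all Tnfrsf17, Bbc3, Tnfrsf8 and Tnfrsf18.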

Other observations

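The shallow libraries entered comparisons only in the alternative with all 24 libraries. Members above the detection limit numbered 1 to 22 in those 8 libraries, against 21 to 35 in the deep ones. Bcl2, Bcl2l1, Tnfrsf1a and Tnfsf13 were above it in 5 of 8 shallow libraries, more than the other members. Bcl2 held 23 counts in desert 4 and 29 in the deep desert 6, and Tnfsf13 held 16 and 19. In the same libraries Bcl2l1 held 7 and 308 counts and Tnfrsf1a 10 and 457. The part of background in these readings was not tested. Desert 3 and desert 4, which share a code number with the deep desert 6, held 5327 and 5262 counts with 34 and 26 genes above their limits. Their counts did not differ beyond counting noise (chi-square per degree of freedom 0.96, p = 0.601 over 99 genes), but at this depth that does not show whether they are 1 sample. Both differed from desert 6 by more than that noise, at 12.9 and 11.5 on the same scale.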
